A study of Rattus norvegicus with 5 samples.

Results

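The genes described here are markers of T cells, cytotoxic lymphocytes, B cells and plasma cells, read in the mesenteric fat that surrounds the rat pancreas. They were chosen by name, with earlier results of these data known. The list holds 35 genes: 20 of T cells, 5 of cytotoxic cells and 10 of B and plasma cells. A member was measured where a probe set was annotated with its symbol alone, and the probe set with the highest mean over the 5 arrays stood for the gene. On that rule 30 of the 35 members had a probe set, among 14217 genes in all, and 25 passed a filter on dim probe sets, among 11509. Cd27, Ccr7, Foxp3, Cd79a and Pax5 had no such probe set and are not analysed here. Cd8b, Cd28, Gzma, Blk and Tnfrsf17 were measured but lay below the filter, which keeps probe sets whose mean exceeds 4.28 on the log2 scale.

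The tissue came from adult male Wistar rats, 7 weeks old at the start and housed singly. The labels do not say whether each array holds 1 rat or a pool, or whether the arrays of a diet come from separate rats. Of the 5 arrays, 3 hold fat of rats kept for 30 days on standard chow, where fat gave 8% of the calories. The other 2 hold fat of rats offered for 30 days a cafeteria diet, where fat gave 66%, and are labelled as the obese group. The series asks how fat next to the pancreas changes with diet-induced obesity. All values are log2 expression levels, so a difference of 1 is a 2-fold change, and differences are cafeteria minus standard.

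T cells recognise antigen through a receptor whose signal is carried into the cell by the CD3 chains and the zeta chain, then by the kinases LCK and ZAP70 and the adaptor LAT. B cells use surface immunoglobulin with the CD79 pair, and plasma cells are the antibody-secreting end of that lineage. Visceral fat holds resident lymphocytes, and mesenteric fat carries small unencapsulated lymphoid clusters as well as lymph nodes, in which the chemokine CXCL13 draws in B cells. Whole tissue was measured, so fewer lymphocytes and less RNA per lymphocyte cannot be told apart.

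The arrays had medians of 5.70 to 5.75. The fat cell markers Adipoq, Plin1, Lep, Cidec, Fabp4, Lpl, Pparg and Cfd, 8 of 8 past the filter, had a mean level of 11.94 to 12.05 on standard arrays and 12.26 to 12.43 on cafeteria arrays. Their differences ran from -0.40 for Cfd to 1.59 for Lep, with a median of 0.26 and 7 of 8 higher. Standard replicate 1 stood apart for pancreatic acinar genes: 15 of 20 acinar genes passed the filter, all highest on that array, with a mean level of 8.77 against 4.57 to 4.87 on the other arrays. The filter uses the mean over the 5 arrays, so a gene can pass through that array alone. Pnliprp1 read 8.58 there and 3.33 to 3.51 elsewhere. Exact ties are common in the deposited values, with 56.3% of probe sets holding the same value on at least 2 arrays. With 2 arrays against 3, the number of arrays limits the precision.

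Lymphocyte genes had lower means in cafeteria than in standard fat, and most of the deficit sat on 1 array, cafeteria replicate 2. Of the 25 members past the filter, 24 had a lower cafeteria mean and the other, Cd22, held 1 value on all arrays, while 50.6% of all genes past the filter had a lower mean. The median difference was -0.46 over these 25 members and -0.0027 over all genes. No member passed the test across all probe sets (limma, adjusted p from 0.295 to 1), and 0.0% of probe sets passed it in the whole table. At an unadjusted p under 0.05, 12.7% of probe sets passed, and among genes 6.88% passed as lower and 6.73% as higher. Of the members 1 passed as lower, Xbp1, and 0 as higher. The arrays of the diets did not overlap, with cafeteria lower, for 11 of the 25 members, against 14.7% of all genes, and with cafeteria higher for 0 members, against 14.7% of genes. The highest cafeteria value exactly equalled the lowest standard value for Zap70, Prf1, Klrd1 and Cd22, which count as overlapping. Overlap by a tie occurred for 1042 genes in all.

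The 2 cafeteria arrays differed from each other. Cafeteria replicate 2 lay below all 3 standard arrays for 22 of the 25 members, against 31.7% of all genes, and was the lowest of the 5 arrays for 21, against 25.1% of genes. Cafeteria replicate 1 lay below the standard arrays for 11 members, against 27.4% of genes, and within the standard range for the other 14. Relative to the standard mean, the median member differed by -0.71 on cafeteria replicate 2 and by -0.20 on cafeteria replicate 1. The median difference between standard replicate 3 and cafeteria replicate 1 was 0.00, with 11 members higher on the standard array, 9 higher on the cafeteria array and 5 equal. Over all 11509 genes the median was also 0.0, with 4998 higher on the standard array, 5451 higher on the cafeteria array and 1060 equal. Single members still differed between these arrays, as Cd8a did with 5.13 on standard replicate 3 and 4.40 on cafeteria replicate 1. Among chow arrays, standard replicates 1 and 2 were each the highest array for 11 members.

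**Figure D1:**
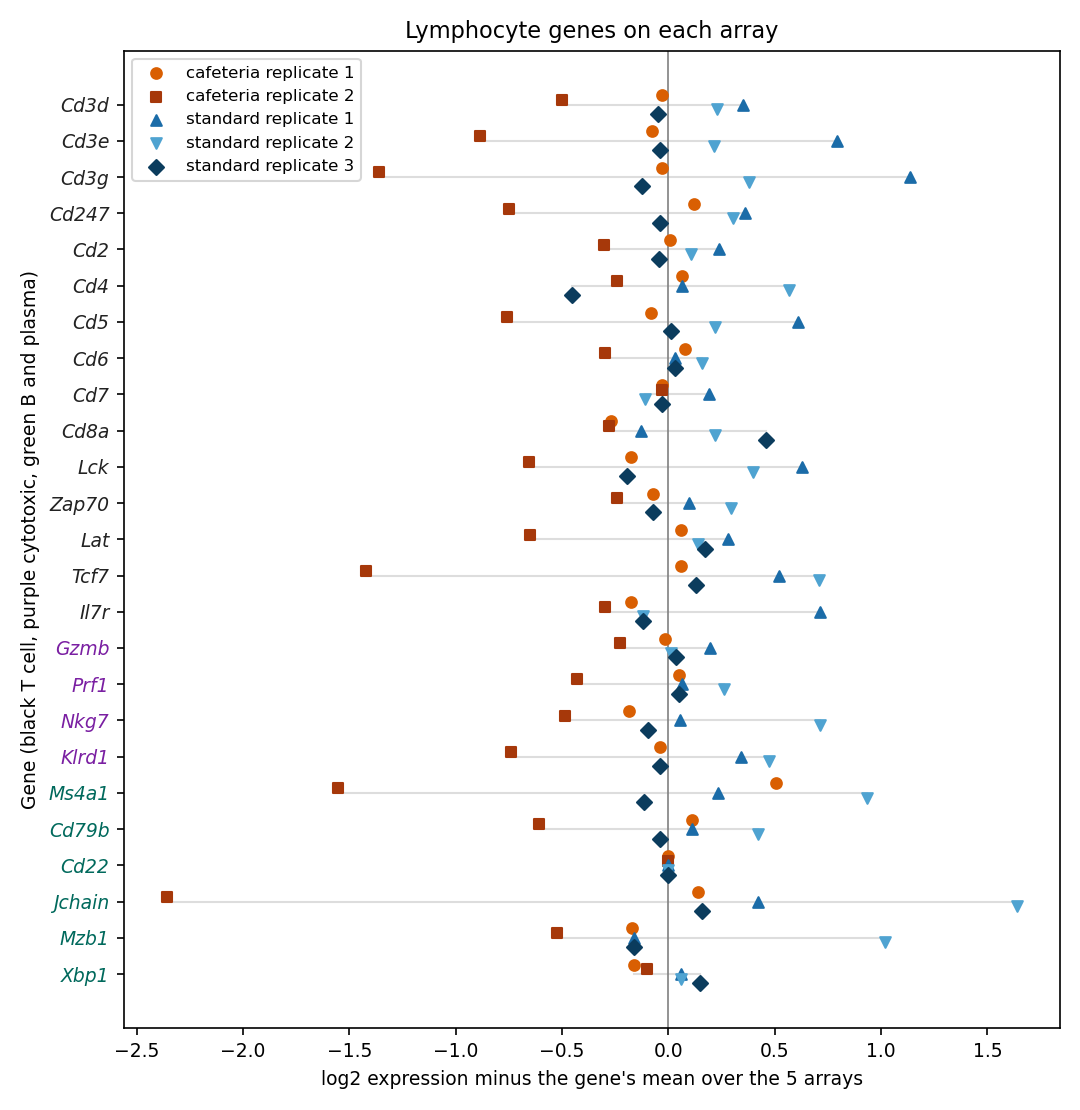
Log2 expression of each of the 25 lymphocyte genes past the filter on each array, as the deviation from that gene's mean over 5 arrays (x axis), with points spread slightly up and down within a row so that equal values stay visible. Cafeteria replicate 2 lies leftmost for 21 of the 25 genes, and cafeteria replicate 1 lies within the range of the standard arrays for 14.

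Among T cell genes, 15 of 20 passed the filter, all 15 with a lower cafeteria mean, and their median difference was -0.46. Without cafeteria replicate 2 the median was -0.20, with 13 of 15 lower, and without cafeteria replicate 1 it was -0.68, with 15 lower. Over the 17 T cell genes with a probe set, dim ones included, 16 were lower and the median was -0.44. For 6 of the 15 the diets did not overlap with cafeteria lower, against 14.7% of all genes: Cd3e, Cd5, Cd8a, Lat, Tcf7 and Il7r.

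The CD3 chains are the signalling subunits of the T cell receptor. Cd3g read 6.29 and 4.96 on cafeteria replicates 1 and 2, and 7.46, 6.70 and 6.20 on standard replicates 1 to 3. Its means were 5.63 ± 0.94 (SD, n = 2) and 6.79 ± 0.63 (SD, n = 3), a difference of -1.16 ± 0.56 (SE), or 2.24-fold lower (limma, adjusted p = 0.474). Cafeteria replicate 1 lay above standard replicate 3, so the diets overlapped, and each cafeteria array alone gave -0.50 and -1.83. Cd3e read 5.45 and 4.64 in cafeteria fat against 6.32, 5.74 and 5.49 in standard fat. That difference was -0.80 ± 0.36 (limma, adjusted p = 0.454), with the 2 diets separated by only 0.04 between cafeteria replicate 1 and standard replicate 3. Dropping cafeteria replicate 2 left -0.40, and dropping cafeteria replicate 1 left -1.21. The dimmer Cd3e probe set, below the filter, differed by -0.37 and overlapped between diets.

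Cd3d gave 5.07 and 4.60 in cafeteria fat and 5.45, 5.33 and 5.05 in standard fat. It differed by -0.44 ± 0.20 (limma, adjusted p = 0.453), and the diets overlapped by 0.02; dropping cafeteria replicate 2 left -0.20. Cd247, which encodes the zeta chain, read 5.20 and 4.33 against 5.44, 5.38 and 5.04. Its difference of -0.53 ± 0.30 (limma, adjusted p = 0.501) was only -0.091 once cafeteria replicate 2 was dropped. A second Cd247 probe set differed by -0.36. All 4 receptor chains were thus lowest on cafeteria replicate 2 and highest on standard replicate 1.

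The proximal signalling genes followed the same order of arrays in part. Lck, the kinase bound to the CD4 and CD8 coreceptors, differed by -0.69 ± 0.30, with cafeteria replicate 1 at 6.86 and standard replicate 3 at 6.84. For Zap70, the kinase recruited to the phosphorylated receptor, the 2 probe sets gave differences of -0.26 ± 0.13 and -0.35 ± 0.26. Lat, the membrane adaptor downstream of ZAP70, read 6.35 and 5.64 in cafeteria fat against 6.57, 6.43 and 6.46 in standard fat. The standard arrays of Lat had an SD of only 0.07, the diets did not overlap, and the difference was -0.49 ± 0.23 (limma, adjusted p = 0.462). Cafeteria replicate 1 alone gave -0.13 against the standard arrays, and cafeteria replicate 2 alone gave -0.85.

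Among coreceptors, Cd4 and Cd8a behaved differently from the CD3 chains. Cd4, which rat macrophages also carry, read 7.50 and 7.19 in cafeteria fat and 7.50, 8.00 and 6.98 in standard fat. Its difference was -0.15 ± 0.33 (limma, adjusted p = 0.839), the lowest array was a standard one, and the sign turned without standard replicate 2 (0.10) or cafeteria replicate 2 (0.0048). Cd8a, the coreceptor of cytotoxic T cells, read 4.40 and 4.39 in cafeteria fat against 4.54, 4.89 and 5.13 in standard fat. Here both cafeteria arrays were low, and the difference was -0.46 ± 0.19 (limma, adjusted p = 0.423), and each cafeteria array alone gave nearly that, -0.45 and -0.47. A second Cd8a probe set differed by -0.37 ± 0.11 with the diets apart (limma, unadjusted p = 0.0211, adjusted p = 0.321), and a dimmer one, below the filter, read 4.06 or 4.07 on every array. Cd8b, the partner chain, was below the filter at 3.83 to 4.11.

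Tcf7, the transcription factor of naive and memory-like T cells, read 6.29 and 4.81 in cafeteria fat against 6.75, 6.94 and 6.36 in standard fat. The diets did not overlap, but cafeteria replicate 1 was only 0.07 below the lowest standard array. The difference was -1.13 ± 0.49, or 2.19-fold lower (limma, adjusted p = 0.443), and it ranged from -1.87 to -0.39 between the 2 cafeteria arrays taken singly. Cd5, which restrains receptor signalling, gave 4.38 and 3.70 against 5.07, 4.68 and 4.47, a difference of -0.70 ± 0.28 (limma, adjusted p = 0.419). Its cafeteria mean of 4.04 lies under the filter level of 4.28, so Cd5 passed through its standard arrays. Taken singly, cafeteria replicate 1 gave -0.36 and cafeteria replicate 2 gave -1.04. Il7r, the receptor for the survival cytokine IL-7, read 5.71 and 5.59 against 6.60, 5.77 and 5.77. Its difference of -0.39 ± 0.30 (limma, adjusted p = 0.552) rested on standard replicate 1 and was -0.12 without that array, while a second, dimmer probe set differed by 0.23.

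The remaining T cell members showed small differences. Cd2, an adhesion receptor, differed by -0.25 ± 0.14, Cd6, a relative of CD5, by -0.18 ± 0.13, and Cd7 by -0.05 ± 0.11, each with overlapping diets. Cd6 differed by 0.0079 without cafeteria replicate 2, and Cd7 by 0.041 without standard replicate 1. Cd28, the costimulatory receptor, read 3.32 to 3.62, below the filter.

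Cytotoxic genes were lower in mean too, 4 of 4 past the filter, with a median difference of -0.44. The median was -0.20 without cafeteria replicate 2, -0.63 without cafeteria replicate 1 and -0.28 without standard replicate 2. Over all 5 members, Gzma included, it was -0.31. For Gzmb and Nkg7 the diets did not overlap with cafeteria lower, which held for 14.7% of all genes.

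Nkg7, a granule membrane protein of cytotoxic cells, read 5.35 and 5.05 in cafeteria fat against 5.59, 6.25 and 5.44 in standard fat. The difference was -0.56 ± 0.28 (limma, adjusted p = 0.479), and -0.31 without standard replicate 2, where it was highest. Gzmb, a killer cell protease, read 4.43 and 4.22 against 4.64, 4.46 and 4.48, near the filter level, and differed by -0.20 ± 0.10 (limma, adjusted p = 0.474). Without cafeteria replicate 2 this was -0.10, and its second probe set lay at 3.03 to 3.20 with no separation. Prf1, which encodes the pore-forming protein perforin, read 5.81 and 5.33 against 5.82, 6.02 and 5.81. Only cafeteria replicate 2 was low: the difference was -0.31 ± 0.17 (limma, adjusted p = 0.497), but -0.07 without that array. Klrd1, the CD94 receptor chain of natural killer cells, differed by -0.64 ± 0.27, or -0.29 when cafeteria replicate 2 was dropped. Gzma was dim, at 3.48 and 3.65 in cafeteria fat and 3.65, 3.59 and 4.18 in standard fat.

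**Figure D2:**
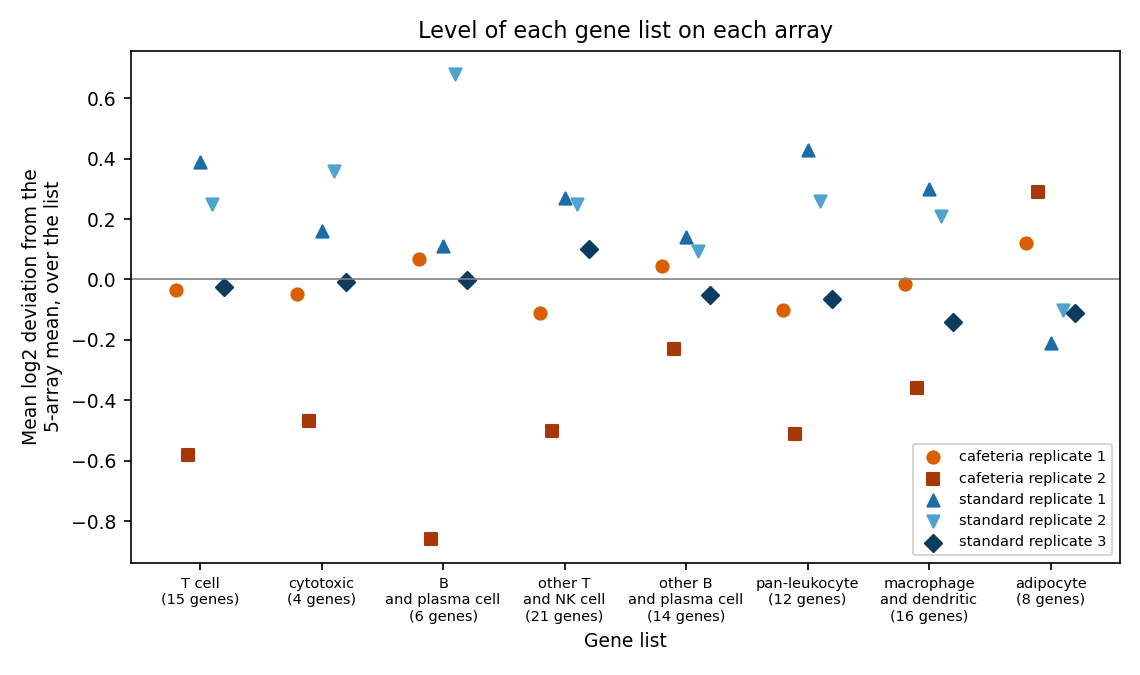
Mean deviation of each gene list from its 5-array mean (y axis, log2) on each array, for the lymphocyte lists and for lists of other cells, over the genes past the filter. Of the 8 lists plotted, cafeteria replicate 2 is lowest for all but the fat cell markers, where it is highest at 0.29; standard replicate 1 leads the T cell list at 0.39 and standard replicate 2 the B and plasma cell list at 0.68.

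B and plasma cell genes varied most between arrays of a diet. Of 10 members 6 passed the filter, with 5 lower in mean, and the median difference was -0.50. It was -0.15 without cafeteria replicate 2, with 4 of 6 lower, -0.76 without cafeteria replicate 1 and -0.26 without standard replicate 2. A filter at the 50th percentile left 3 members with a median of -0.22, and with no filter 8 members had a median of -0.32. The summed picture differed from that of T cells among the chow arrays: the B and plasma list deviated by 0.68 on standard replicate 2 and 0.11 on standard replicate 1, the T cell list by 0.25 and 0.39.

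Jchain, which encodes the chain that joins IgA and IgM into polymers, read 8.14 and 5.64 in cafeteria fat against 8.42, 9.64 and 8.16 in standard fat. It had the largest difference of any member, -1.85 ± 0.90, or 3.61-fold lower, with a 95% interval of -4.25 to 0.54 (limma, adjusted p = 0.474). The diets were apart by 0.02 between cafeteria replicate 1 and standard replicate 3, and the cafeteria arrays taken singly gave -0.60 and -3.10. A second Jchain probe set read 5.89 on cafeteria replicate 1 and on standard replicates 1 and 3, 5.54 on cafeteria replicate 2 and 7.31 on standard replicate 2. Both probe sets were thus lowest on cafeteria replicate 2 and highest on standard replicate 2. Mzb1, a chaperone of immunoglobulin assembly, shared those extremes, with 4.90 and 4.55 in cafeteria fat against 4.91, 6.09 and 4.91. Its difference was -0.58 ± 0.43 (limma, adjusted p = 0.548), but -0.19 without standard replicate 2.

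Ms4a1, which encodes CD20 of mature B cells, read 5.97 and 3.91 in cafeteria fat against 5.70, 6.40 and 5.35 in standard fat. Cafeteria replicate 1 lay above 2 of the 3 standard arrays, so the mean difference of -0.87 ± 0.71 (limma, adjusted p = 0.573) came from cafeteria replicate 2 and was 0.16 without it. Cd79b, the signalling partner of surface immunoglobulin, read 5.50 and 4.78 against 5.50, 5.81 and 5.35. That gave -0.42 ± 0.27 (limma, adjusted p = 0.514), and -0.058 without cafeteria replicate 2. Cd22, an inhibitory B cell receptor, read 5.94 on all 5 arrays to the last digit deposited and carries no difference. Such a tie on all arrays occurred in 356 of 31042 probe sets. Blk, a B cell kinase, and Tnfrsf17, the plasma cell receptor BCMA, were below the filter, with differences of -0.11 and 0.13.

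Xbp1, a transcription factor of secretory cells that plasma cells need and many other cells use, was the member with the smallest p. Its values were 11.06 and 11.12 in cafeteria fat and 11.28, 11.28 and 11.37 in standard fat. The cafeteria pair was below every standard array, and the difference was -0.22 ± 0.06, with a 95% interval of -0.37 to -0.07 (limma, unadjusted p = 0.0136, adjusted p = 0.295). The exact permutation test over the 10 splits of 5 arrays, two-sided, gave p = 0.1, the smallest those splits allow. It did not follow the other plasma cell genes: cafeteria replicate 1, not 2, was lowest, and standard replicate 2 was not highest. Without standard replicate 1, the array highest for acinar genes, the difference was -0.24. Without Xbp1 the B and plasma list had a median of -0.58.

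**Figure D3:**
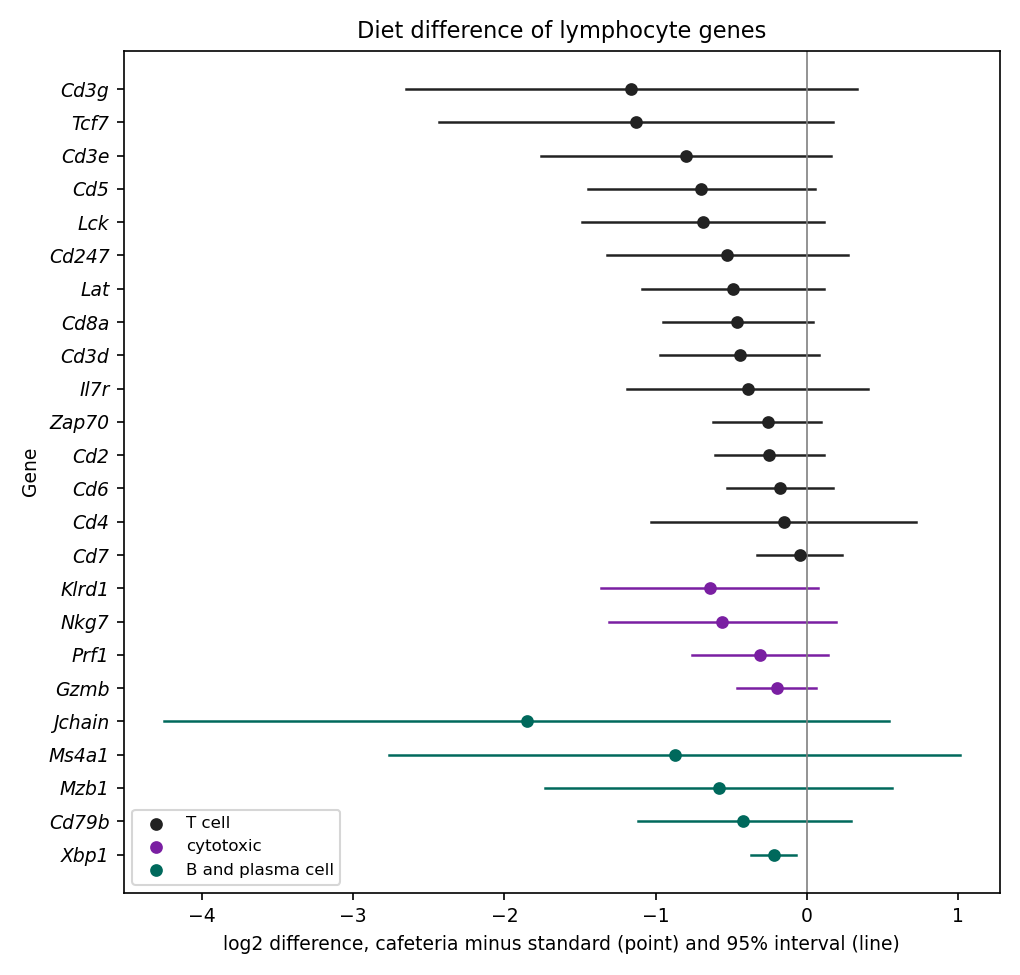
Difference between diets for each lymphocyte gene past the filter other than Cd22 (point, log2, cafeteria minus standard) with its 95% interval from the limma fit (line), grouped by T cell, cytotoxic, and B and plasma cell genes. All points lie at or below -0.05, and only the interval of Xbp1, -0.37 to -0.07, leaves out 0.

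The 4 members past the filter with the largest differences among those with a promoter in the RefSeq table were Jchain, Cd3g, Tcf7 and Cd3e. Their promoters are shown for the size of these differences alone. All 4 genes are among the 21 of 25 members that were lowest on cafeteria replicate 2. The windows run from 250 bases before to 50 after the annotated start, build GRCr8, on the gene's strand, and 24 of the 35 members had an entry, 25 windows in all. Capitals mark matches, on either strand, to short sites bound by lymphocyte factors: AGGAAG for ETS factors, TGTGGT for RUNX, CAGGTG for E proteins, CTTTGA for the TCF family and ATGCAAAT for octamer factors. No matches overlap in these windows. Jchain lies at chr14:19822726-19823025 on the plus strand, Cd3g at chr8:54183869-54184168, Tcf7 at chr10:36954230-36954529 and Cd3e at chr8:54211721-54212020, all 3 on the minus strand.
Jchain: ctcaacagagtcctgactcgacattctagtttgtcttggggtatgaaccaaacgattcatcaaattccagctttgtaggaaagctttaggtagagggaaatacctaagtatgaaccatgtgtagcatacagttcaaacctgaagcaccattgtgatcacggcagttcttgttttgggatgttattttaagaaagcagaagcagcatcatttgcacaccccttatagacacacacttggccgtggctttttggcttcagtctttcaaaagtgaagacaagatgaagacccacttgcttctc
Cd3g: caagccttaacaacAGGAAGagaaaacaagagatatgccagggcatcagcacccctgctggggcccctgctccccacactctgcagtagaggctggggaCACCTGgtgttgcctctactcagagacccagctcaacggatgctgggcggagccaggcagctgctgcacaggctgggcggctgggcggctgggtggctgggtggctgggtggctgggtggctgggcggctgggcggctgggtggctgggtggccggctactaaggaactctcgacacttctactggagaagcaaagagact
Tcf7: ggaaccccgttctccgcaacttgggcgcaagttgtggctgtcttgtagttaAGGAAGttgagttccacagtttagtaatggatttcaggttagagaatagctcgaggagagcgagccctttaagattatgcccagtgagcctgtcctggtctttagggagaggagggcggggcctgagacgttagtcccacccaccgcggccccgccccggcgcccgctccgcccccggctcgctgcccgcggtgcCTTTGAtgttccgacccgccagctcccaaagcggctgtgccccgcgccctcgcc
Cd3e: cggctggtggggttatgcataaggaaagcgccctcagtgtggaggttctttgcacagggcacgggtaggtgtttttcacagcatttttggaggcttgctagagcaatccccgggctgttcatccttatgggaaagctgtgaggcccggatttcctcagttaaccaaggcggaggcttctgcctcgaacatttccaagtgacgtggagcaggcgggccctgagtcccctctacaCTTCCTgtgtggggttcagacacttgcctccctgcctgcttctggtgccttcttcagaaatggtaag

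The Cd3e window holds 1 ETS match, at -17 bases from the start. In Cd3g there is 1 ETS match at -236 and 1 E protein match at -151, and in Tcf7 1 ETS match at -199 and 1 TCF match at -4. Jchain holds none of the 5. Over the 25 member windows the ETS letters occurred in 16, against 34.5% of all 33469 windows. RUNX letters occurred in 9, against 17.3%, E protein letters in 12, against 18.8%, TCF letters in 6, against 16.1%, and the octamer in 0, against 1.78%. These are descriptions of letters, and no binding was measured.

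Further genes of T and natural killer cells, listed apart from the members, were also mostly lower in mean, but less on cafeteria replicate 2 alone. Of 40 listed genes 21 passed the filter, 20 with a lower cafeteria mean and 1 higher, with a median of -0.53. For 13 of the 21 the diets did not overlap with cafeteria lower, against 14.7% of all genes. Cafeteria replicate 2 lay below the standard arrays for 20 and cafeteria replicate 1 for 13, against 31.7% and 27.4% of genes. Standard replicate 3 lay above cafeteria replicate 1 for 15 genes and below it for 5, against 11 and 9 members. The smallest p-values were those of Ets1, a transcription factor also used by endothelium, at -0.59 ± 0.08, Il2rg, the common cytokine receptor chain, at -0.99 ± 0.18, and Gata3 at -0.53 ± 0.16 (limma, adjusted p = 0.222, 0.253 and 0.321). Il2rg read 7.51 on both cafeteria arrays against 8.60, 8.72 and 8.18 on the standard arrays, so here both cafeteria arrays were low. Ets1 and Gata3 were lowest on cafeteria replicate 1, at 9.15 and 5.09. Endothelial markers, 12 of 14 past the filter, were also all lowest on that array, with a mean level of 8.33 there, 8.79 on cafeteria replicate 2 and 8.93 to 9.05 on standard arrays. Their part in these values was not tested. Grap2, a T cell adaptor, was the 1 gene higher, by 0.08.

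Other B and plasma cell genes were mixed, 9 lower and 5 higher of 14 past the filter out of 30, with a median of -0.27. On the lower side Swap70 differed by -0.35 ± 0.09, Prdm1, the plasma cell regulator, by -0.62 ± 0.19, and Blnk, the B cell linker, by -0.57 ± 0.26. On the higher side the heparan sulfate carrier Sdc1, also an epithelial gene, differed by 0.63 ± 0.14, the chemokine receptor Cxcr5 by 0.18 ± 0.07 and Fcrla by 0.21 ± 0.16. For these 6 genes limma gave adjusted p-values of 0.276 to 0.550.

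Among genes of lymphoid stroma and homing, the largest difference was that of a B cell chemokine. Cxcl13, the B cell attractant, read 11.10 and 8.24 in cafeteria fat against 12.33, 12.28 and 11.83 in standard fat. The diets did not overlap, and the difference was -2.48 ± 0.89, or 5.56-fold lower, with a 95% interval of -4.83 to -0.12 (limma, unadjusted p = 0.0432, adjusted p = 0.375). Cafeteria replicate 2 lay 2.86 below cafeteria replicate 1, so like Jchain and Ms4a1 the gene was lowest on that array. Ccl19, which attracts T cells and dendritic cells, was low on both cafeteria arrays, at 6.43 and 6.27 against 7.09, 6.89 and 6.95, a difference of -0.63 ± 0.09 (limma, adjusted p = 0.228). Cxcl12, a broadly made stromal chemokine, differed by -0.42 ± 0.14. Ccl21, the other ligand of CCR7, differed by 0.08 ± 0.11, Prox1 of lymphatic endothelium by 0.17 and Chst4, an enzyme of high endothelial venules, by 0.53 ± 0.48, all with overlap. Chst4 was high on cafeteria replicate 1 only, at 7.93 against 6.41 to 6.97 elsewhere. Glycam1 of the same list differed by -0.44 ± 0.19 with the diets apart (limma, adjusted p = 0.437). In all, 15 of 20 listed genes passed the filter, 11 lower and 4 higher, with a median of -0.40.

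**Figure D4:**
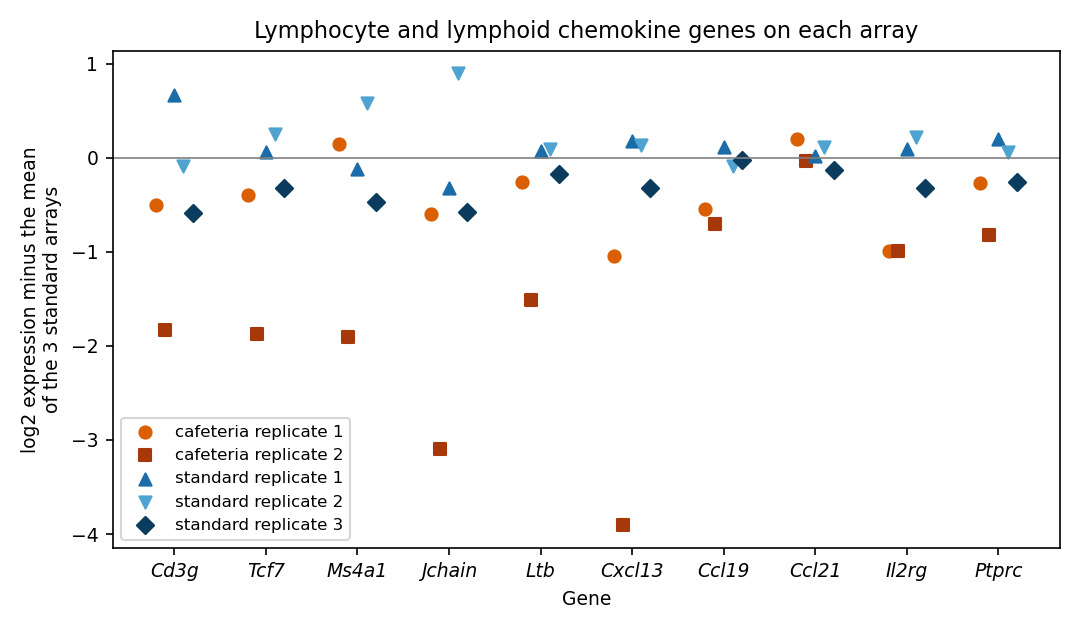
Log2 expression of 10 lymphocyte and lymphoid chemokine genes on each array, as the difference from the mean of the 3 standard arrays (y axis), chosen after their values were seen. Cxcl13, Jchain, Ms4a1, Tcf7 and Cd3g are lowest on cafeteria replicate 2, Il2rg and Ccl19 are low on both cafeteria arrays, and Ccl21 is close to 0 on all.

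Leukocyte genes at large also had lower means. The pan-leukocyte list, 12 of 15 past the filter, had 11 lower and 1 higher, Cd52, and a median of -0.53. Its mean level was 8.20 and 7.79 on cafeteria arrays against 8.24 to 8.73 on standard arrays. Macrophage and dendritic genes, 16 of 18 past the filter, were all lower in mean with a median of -0.36, at 8.90 and 8.56 against 8.77 to 9.22. On each array the T cell list deviated from the pan-leukocyte list by no more than 0.069 in size, the cytotoxic list by -0.27 to 0.11 and the B and plasma list by -0.34 to 0.42. Against the macrophage and dendritic list, the T cell list lay at -0.22 on cafeteria replicate 2, at -0.019 on cafeteria replicate 1 and at 0.036 to 0.12 on standard arrays. The cytotoxic list lay at -0.14 to 0.15 against it and the B and plasma list at -0.50 to 0.47. Itgal, the integrin chain of lymphocyte adhesion, had the smallest p of the pan-leukocyte list, at 5.68 and 4.95 against 6.92, 7.21 and 6.62, a difference of -1.60 ± 0.29 (limma, adjusted p = 0.253). The part of other leukocytes in the members' values was not tested.

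The array with the least lymphocyte RNA was also the highest for fat cell markers, with a mean level of 12.43, in which Lep weighs most. Of the 8 markers 6 were highest on that array. It was the highest too for red cell genes, 5 of 8 past the filter, with a mean level of 7.55 against 7.12 to 7.19 on the other arrays. Among red cell genes Hbb, the beta globin gene, read 13.22 on that array and 12.58 to 12.78 elsewhere. The share of these cells in the tissue was not tested.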

How the data were processed

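The authors deposited a log2 level for each probe set on each array. RMA and affy are the tools listed, versions unstated, per the submitters' processing notes. RMA makes array distributions alike, which can hide a shift of most transcripts, and later processing is not given in the sources used here. Labels gave the groups, and identical values between array pairs (11.7% to 14.7%) led to no merging. Array controls were left out, and probe sets whose mean over 5 arrays exceeded the 30th percentile, 21729 of 31042, were kept. Diets were compared with limma 3.58.1 (lmFit, eBayes; R 4.3.3) with 3 residual degrees of freedom, two-sided, with Benjamini-Hochberg adjustment over all probe sets and a threshold of 0.05. P-values measure only the spread between these samples, which may be technical. Symbols came from GEO's platform annotation, and sequences from RefSeq. A list is described by counts and its median. A gene's deviation is its value minus its mean over the arrays, averaged over a list. The script was tested on simulated data.

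Members shown in full were those whose diets did not overlap, the receptor chains and the main effector genes. Other lists gave at most 3 genes a direction by smallest p. Outside that rule, Ltb, Ptprc, Glycam1, Hbb, Pnlip and Bcl6 were chosen after their values were seen, as was Pnliprp1 within it. The members and lists were chosen with earlier results of these data known. Figures were drawn with matplotlib 3.10.9.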

Additional observations from a re-analysis of the deposited data

How the results depend on the processing

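Alternatives changed the filter (none, or the 50th percentile), the normalization (quantile, cyclic loess) or the variance model (trend, robust, array weights). Others left out probe sets with the suffix _x_at, _s_at or _a_at, or took the mean of a gene's probe sets. Further ones added a replicate block or dropped 1 array. The list without Xbp1 was chosen after seeing the data. In 15 refits limma called 0 probe sets at an adjusted p of 0.05, with 1986 to 4174 at an unadjusted p under 0.05. Some refits could not change a direction. The filter, trend and robust refits keep each probe set's difference as it was, as does leaving out probe sets by suffix. Both replicate block fits gave equal values, which were also those found without standard replicate 3. With those included, of 345 recomputed differences of the 24 members other than Cd22, 340 kept their direction, and none was called by limma. Cd22, at 0 as deposited, was 0.041 after quantile and 0.0022 after cyclic loess normalization. The other 5 changed sign: Cd4 was 0.10 without standard replicate 2 and 0.0048 without cafeteria replicate 2, where Cd6 was 0.0079 and Ms4a1 0.16, and Cd7 was 0.041 without standard replicate 1. Dropping each array gave ranges of -0.41 to 0.10 for Cd4, -0.37 to 0.0079 for Cd6, -0.11 to 0.041 for Cd7 and -1.90 to 0.16 for Ms4a1. Leaving out each array gave medians of -0.68 to -0.20 for T cell, -0.63 to -0.20 for cytotoxic and -0.76 to -0.15 for B and plasma cell genes; without cafeteria replicate 2 the values nearest 0 arose. Leaving out a cafeteria array leaves 1, assumed to vary like the others.

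With the replicate number as a block, medians were -0.53, -0.53 and -0.65. These are the medians without standard replicate 3, which has no same-numbered cafeteria array. The block fit called 0 probe sets, with 2206 at an unadjusted p under 0.05 (limma). The main fit also called 0, so the unchanged count is no measure of a replicate effect. Deviations of same-numbered arrays from their diet means correlated at 0.079 and -0.0365. The deviations of the 2 cafeteria arrays mirror each other, so these values are not independent. They cannot show what same-numbered arrays share, and the labels do not say it. Signal near the filter level limits Cd5, Gzmb and Ms4a1, each with an array below it.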

Other observations

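The acinar genes Cela3b and Cpa1 were not high on standard replicate 1 alone. A probe set annotated to the elastase gene Cela3b read 9.52 and 6.46 in cafeteria fat and 9.86, 9.70 and 8.88 in standard fat, lowest on cafeteria replicate 2 like Cxcl13 and Jchain. Cpa1, a carboxypeptidase, read 7.38 and 9.07 in cafeteria fat against 9.37, 5.34 and 5.94, so cafeteria replicate 2 was nearly as high as standard replicate 1. By comparison Pnlip, pancreatic lipase, read 10.11 on standard replicate 1 and 4.23 to 4.45 elsewhere. Bcl6, a transcription factor of germinal centre B cells that fat cells also use, was highest on cafeteria replicate 1, at 9.46 against 8.22 to 8.74 elsewhere.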
